A study of Mus musculus with 12 samples.

Results

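The genes described here were 8 that encode RNA-binding proteins of the germ line, namely Dazl, Boll, Ddx4, Dnd1, Nanos2, Nanos3, Rbm46 and Cpeb1, found by symbol among 54532 rows of a gene count table. They were chosen by their function around a rise of Dazl in the somatic libraries of these same data, so the somatic values of Dazl are a description and carry no test. The question was whether the other 7 genes shared that rise. RNA was sequenced in 12 bulk libraries from fetal mouse ovaries at E15.5 (E, embryonic day). All embryos carried the transgene Tg(Pou5f1-EGFP)2Mnn, in which sequence of Pou5f1 (OCT4) drives a green fluorescent protein in germ cells. Dams of the dexamethasone (dex) groups received daily intraperitoneal injections of this glucocorticoid receptor agonist at 10 μg per g of body weight from E12.5 to E15.5, and dams of the control groups received saline. Ovaries were sorted by GFP into positive (germ) and negative (somatic) cells, which gave 4 groups of 3 libraries: germ cells after saline, germ cells after dex, somatic cells after saline and somatic cells after dex. Per the study's methods, each replicate held sorted cells of ovaries pooled over at least 2 litters that were dosed separately. The GFP-negative fraction was a mixture of all other ovarian cells, and it could hold germ cells that the gate missed.

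As background, germ cells depend on control of mRNA after transcription. DAZL binds the 3' untranslated regions of germ line transcripts, recruits poly(A)-binding protein and promotes their translation, and BOLL is a relative of the same DAZ family. DDX4 (the mouse VASA homolog) is an RNA helicase of germ granules, and CPEB1 controls cytoplasmic polyadenylation in oocytes. RBM46 binds meiotic transcripts, while DND1 and NANOS3 maintain early germ cells. DND1, NANOS2 and NANOS3 lead bound transcripts to the CCR4-NOT deadenylase. Many genes of this kind have CpG-rich promoters that are methylated and silent in somatic tissue. No methylation was measured in these libraries.

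Library totals were 14658503 to 18245507 counts, and 3 counts, taken as the floor of detection, equalled 0.169 to 0.201 CPM (library-scaled counts, here scaled by library total and the TMM factor). Intervals of counts given below cover counting error only. All 4 glucocorticoid response genes used as a check (Fkbp5, Per1, Tsc22d3 and Zbtb16) were called higher after dex in somatic cells, and 2 of 4, Per1 and Zbtb16, in germ cells. A gene was called where its Benjamini-Hochberg (BH) adjusted p in edgeR's quasi-likelihood test was at most 0.05. Of 20 germ cell markers that are not RNA-binding protein genes, 19 were higher and 1, Rec8, was lower in germ cells than in somatic cells after saline. All 13 ovarian somatic markers were higher in the somatic libraries. The median level of these somatic markers in the germ libraries was 2.81% to 6.95% of that in somatic cells.

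Dazl was the only one of the 8 genes, 6 of them tested, called higher after dex in the somatic libraries, where its level went from 1.17 ± 0.193 to 12.8 ± 0.134 CPM (SD, n = 3) and stayed far below the level in germ cells. The somatic saline libraries held 19, 21 and 16 Dazl counts, and the somatic dex libraries held 213, 227 and 212. In CPM these were 1.2, 1.35 and 0.97 after saline against 12.9, 12.8 and 12.6 after dex. The groups lay far apart, and the spread among the dex libraries was the smallest of any of the 8 genes in any group, at a coefficient of variation of 1.05%. At 212 to 227 counts this is less than counting error alone would give, so it does not measure the spread between samples. The log2 difference was 3.43 (SE 0.21, 95% interval 2.99 to 3.88), and the ratio of summed counts scaled to library size was 10.9 (95% exact interval 8.29 to 14.6). Leaving out any 1 of the 6 somatic libraries gave log2 differences of 3.31 to 3.55. In the same test 4.81% of 16556 genes were called higher and 3.36% lower. These values chose the gene, so nothing further was read from the call. Against the mean of the 6 germ libraries, 1027 CPM, the somatic Dazl level was 0.114% after saline and 1.24% after dex.

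Dazl (ENSMUSG00000010592) lies on the minus strand of chromosome 17, at 50279395 to 50293636 in GRCm38, and no other annotated gene overlaps it. The promoter windows searched were those of RefSeq in GRCm38.p6, from 250 bases before to 50 bases after a start. The Dazl window held 28 CG dinucleotides and 68.7% G or C, against medians of 7 and 52.7% over 32851 windows. The stretch ahead of its annotated starts is shown because it belongs to the gene that moved, and that of Rbm46 because Rbm46 had the highest somatic level of the 8 genes and did not move. Both are from the minus strand, written 5′ to 3′, with CG dinucleotides in capitals, 19 in the Dazl stretch (chr17:50293637-50293870) and 18 in the Rbm46 stretch (chr3:82876484-82876733).
Dazl: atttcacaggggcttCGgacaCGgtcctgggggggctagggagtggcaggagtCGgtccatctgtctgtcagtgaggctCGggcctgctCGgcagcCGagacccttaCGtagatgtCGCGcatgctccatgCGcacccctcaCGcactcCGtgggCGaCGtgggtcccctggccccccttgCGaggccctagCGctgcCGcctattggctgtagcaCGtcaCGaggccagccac
Rbm46: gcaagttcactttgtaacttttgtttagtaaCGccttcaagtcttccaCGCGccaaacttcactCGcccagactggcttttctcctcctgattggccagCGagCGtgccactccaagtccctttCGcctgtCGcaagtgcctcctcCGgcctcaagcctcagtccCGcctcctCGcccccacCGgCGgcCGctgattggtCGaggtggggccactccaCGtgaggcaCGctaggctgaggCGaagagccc

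The 4 short motifs were searched on both strands: ACANNNTGT, the spaced palindromic core of a glucocorticoid response element, AGAACA, a single arm of such an element, CACGTG, the E-box, and GCGGGAA, an E2F site. As background, the E-box and the E2F site are bound by factors of the complexes that silence germ line genes in somatic cells. The Dazl window held none of the 4. The E-box was present in a window of 4 of the 7 genes that had one (Ddx4, Rbm46, Cpeb1 and Boll), against 7.15% of all windows, and GCGGGAA in windows of 2 of 7 (Ddx4 and Boll), against 4.6%. These shares are not a like comparison, because members were counted by gene and Boll was searched at more than a single start. Both motifs also contain CG, and the windows with the E-box held 13 to 38 CG dinucleotides against the median of 7. No enrichment was read from them. ACANNNTGT (6.85% of all windows) and AGAACA (19% of all windows) were in no window of the 7. Windows of Nanos2 and Nanos3 held none of the 4 motifs, with 0 and 3 CG dinucleotides.

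**Figure D1:**
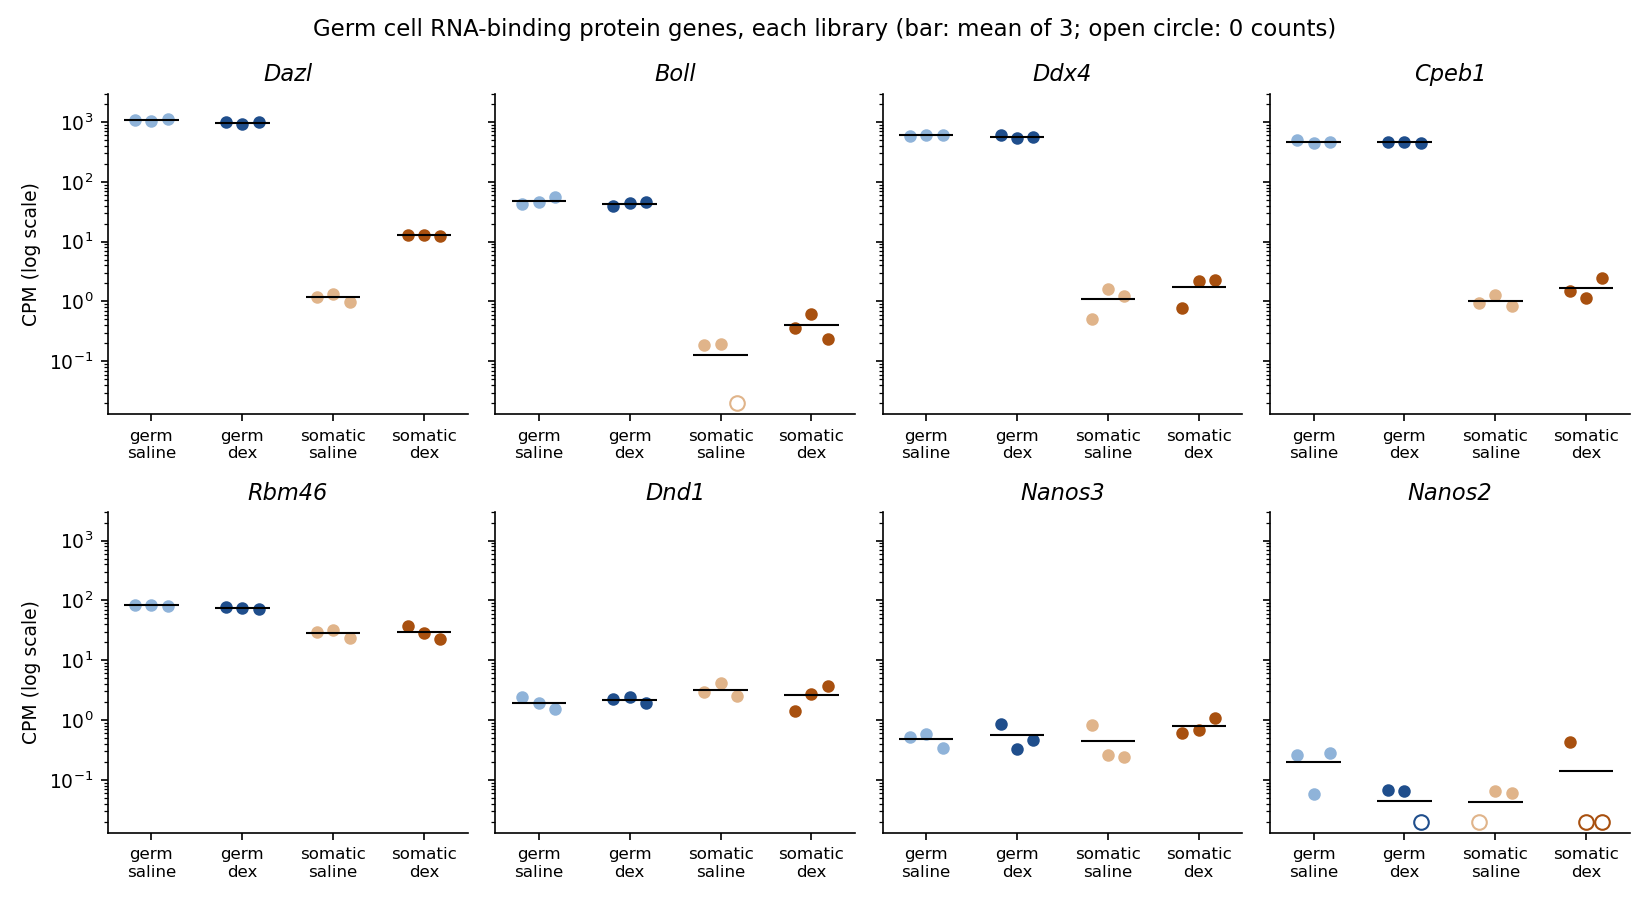
Level of each of the 8 genes in each of the 12 libraries, in CPM on a log scale, by cell population and treatment (points: libraries 1 to 3 from left to right, bars: mean of 3, open circles: libraries with 0 counts, drawn at the lower edge). Dazl in somatic cells sat at 0.971 to 1.35 CPM after saline and at 12.6 to 12.9 CPM after dex, while points of the 2 somatic groups interleave for Ddx4, Cpeb1, Rbm46, Dnd1 and Nanos3.

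Boll, the DAZ family relative of Dazl (ENSMUSG00000025977), was the only other gene with all 3 somatic dex libraries above all 3 somatic saline libraries. It had 3, 3 and 0 counts after saline and 6, 11 and 4 after dex. The background of this kind of separation was 13.5% of the genes tested in somatic cells, and 11.9% had all dex libraries below all saline libraries, beside none of the 8. With 6 against 21 counts in sum, the ratio scaled to library size was 3.28 (95% exact interval 1.28 to 9.93), an interval that ran from near equality to near the Dazl ratio. Boll did not pass the low-count filter of the somatic test. The somatic dex mean, 0.407 ± 0.195 CPM (SD, n = 3), stood above the floor of 0.169 to 0.201 CPM.

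Ddx4 and Cpeb1, the genes with germ cell levels next to that of Dazl, had slightly higher somatic means after dex, with overlapping libraries. Ddx4 (ENSMUSG00000021758) had 8, 25 and 20 somatic counts after saline and 13, 39 and 38 after dex. The lowest dex library lay below 2 of the 3 saline libraries. Its log2 difference was 0.65 (SE 0.51, 95% interval −0.45 to 1.75). Cpeb1 (ENSMUSG00000025586) had 15, 20 and 14 counts after saline and 25, 20 and 42 after dex. Its log2 difference was 0.73 (SE 0.43, 95% interval −0.20 to 1.65). In 1 fit of all 12 libraries the Cpeb1 interval was narrower, 0.16 to 1.30, and the gene was not called; that of Ddx4 was −0.06 to 1.39. The ratio of summed counts was 1.59 for Ddx4 (95% exact interval 1.12 to 2.28) and 1.66 for Cpeb1 (1.16 to 2.41), so by counting error alone both stood above equality, and by the spread between the 6 somatic libraries neither did. The upper end of the fitted intervals of both genes lay below the lower end of the Dazl interval, 2.99, so a rise of the size of Dazl's was outside them, while a smaller one was within them. As a share of the germ cell mean, Ddx4 was at 0.189% after saline and 0.298% after dex, and Cpeb1 at 0.223% and 0.371%.

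Rbm46 (ENSMUSG00000033882) was the gene of the 8 with the most somatic RNA, and its level did not separate the groups. Its somatic counts were 465, 495 and 387 after saline and 616, 500 and 383 after dex. The log2 difference was 0.05 (SE 0.16, 95% interval −0.29 to 0.40). With 1347 and 1499 counts in sum, this interval was the narrowest of those for the somatic comparison.

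Dnd1 (ENSMUSG00000044595), which encodes a partner of NANOS2, had 47, 65 and 41 somatic counts after saline and 23, 49 and 62 after dex, with a log2 difference of −0.30 (SE 0.36, 95% interval −1.07 to 0.48). The libraries overlapped, and 140 bases of Dnd1 exon are shared with Wdr55 on the other strand. Nanos3 (ENSMUSG00000056155) had 13, 4 and 4 counts after saline and 10, 12 and 18 after dex, with a log2 difference of 0.82 (SE 0.59, 95% interval −0.46 to 2.10). Nanos2 (ENSMUSG00000051965) had 0, 1 and 1 counts after saline and 7, 0 and 0 after dex, so all of its dex counts came from a single library. Nanos2 did not pass the filter in any comparison, and 766 of its 1563 exon bases are shared with Gm45058 on the other strand. Whether counting used strand was not given in the sources used here, so for Nanos2 and Dnd1 reads of the overlapping genes cannot be told apart.

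**Figure D2:**
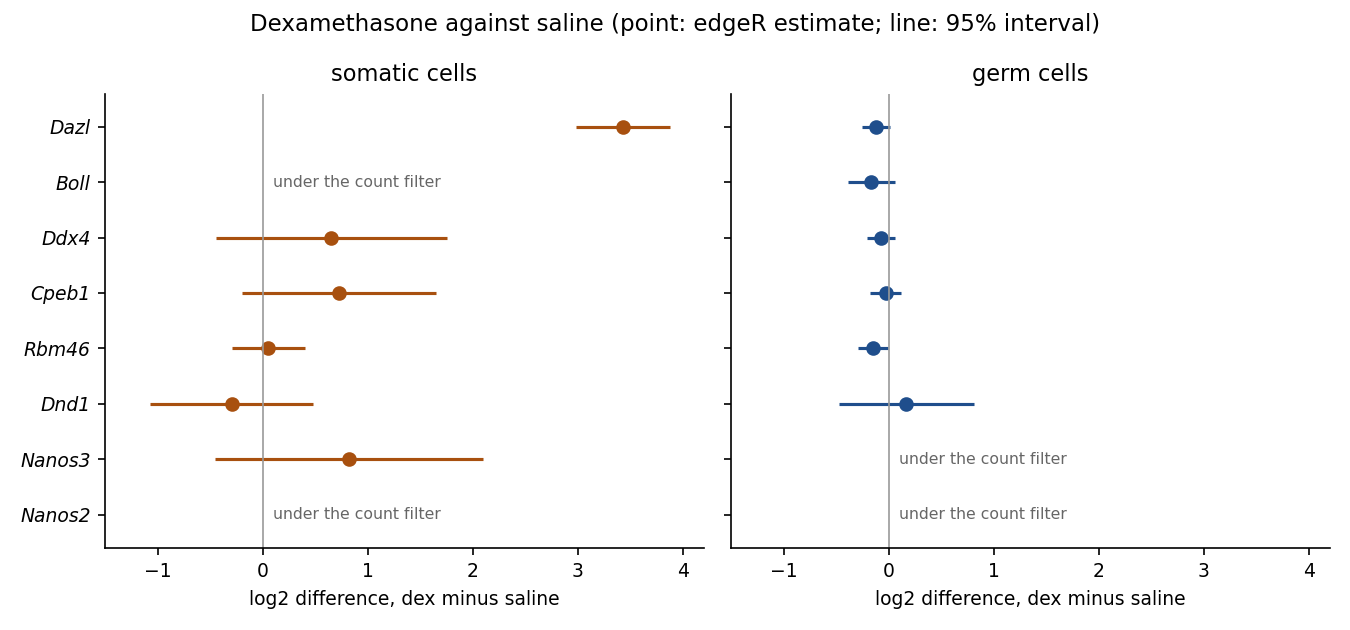
Log2 difference between dex and saline for each of the 8 genes in somatic cells (left) and germ cells (right), from edgeR (points: estimates, lines: 95% intervals; genes under the count filter are marked). The somatic Dazl interval, 2.99 to 3.88, stands apart from the 5 other somatic intervals, which all include 0, and the germ cell estimates lie between −0.17 and 0.17.

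The germ cell libraries gave the same genes at high depth, and there dex was followed by no called change in any of the 6 genes tested. In that test 0.208% of 16857 genes were called, 35 in number, against 1963 at an unadjusted p under 0.05. DESeq2 called 158 genes and none of the 8. Dazl was at 1072 ± 43.9 CPM after saline and 982 ± 36.9 CPM after dex (SD, n = 3), a log2 difference of −0.12 (SE 0.06, 95% interval −0.25 to 0.01, BH-adjusted p = 0.491, edgeR). The 3 dex libraries, at 943 to 1016 CPM, all lay below the 3 saline libraries, at 1031 to 1118 CPM. Rbm46 showed the same order, at 73.7 ± 3.06 CPM after dex and 82.1 ± 1.54 CPM after saline (log2 difference −0.15, SE 0.07, BH-adjusted p = 0.41, edgeR). Of all genes tested in germ cells, 9.43% had all dex libraries below all saline libraries and 7.93% had them above, beside 2 and 0 of the 6 genes. Boll, Ddx4, Cpeb1 and Dnd1 overlapped between treatments, with log2 differences of −0.17, −0.07, −0.03 and 0.17. The median over the 6 genes was −0.10, against 0.01 over all genes tested. Nanos2 held 4, 1 and 5 counts after saline and 1, 1 and 0 after dex, and Nanos3 held 8, 10 and 6 against 13, 5 and 8; neither passed the filter.

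The dex effect in germ cells minus that in somatic cells, fitted over all 12 libraries, was −3.56 for Dazl on the log2 scale (SE 0.14, 95% interval −3.86 to −3.27). It rests on the somatic contrast that chose the gene and is a description. Among the 7 genes in that fit no other was called, where 314 of all 19390 genes in the fit were called. Boll, with 0 to 11 counts in somatic libraries, was in this fit only through its germ cell level and is given no value. Cpeb1 had −0.77 (SE 0.29), Ddx4 −0.74 (SE 0.36), Nanos3 −0.63 (SE 0.83), Rbm46 −0.21 (SE 0.19) and Dnd1 0.45 (SE 0.49).

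The 6 genes that could be tested between populations differed widely in how far they were specific to germ cells. After saline, Dazl, Ddx4, Cpeb1 and Boll were higher in germ cells by 9.84, 9.09, 8.84 and 8.52 on the log2 scale, each with a standard error of at most 0.29. Their BH-adjusted p-values in edgeR ran from 8.95e-16 to 7.73e-13. Rbm46 was higher in germ cells by only 1.55 (SE 0.10, adjusted p = 1.48e-09, edgeR). Dnd1 was lower in germ cells by a log2 difference of −0.71 (SE 0.31, adjusted p = 0.044, edgeR), a call that was lost with DESeq2, where its adjusted p was 0.113. Among the 17941 genes of this comparison, 43.1% were called higher and 42.9% lower in germ cells, so a call in itself was common. The 4 largest differences among these 6 genes lay between 8.52 and 9.84, and the next was 1.55.

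Scaled to exon length (FPKM, as deposited by the authors), the levels in germ cells after saline ran Dazl (284), Ddx4 (202), Cpeb1 (113), Rbm46 (33.2), Boll (14), Dnd1 (0.817), Nanos3 (0.525) and Nanos2 (0.13), and the ranges of neighbours did not overlap. After dex the order was the same, and the ranges of Dnd1 and Nanos3 overlapped. In somatic cells after saline the order began with Rbm46 at 11 FPKM and Dnd1 at 1.29 FPKM. Nanos3, Ddx4, Dazl and Cpeb1 followed at 0.238 to 0.462 FPKM, each overlapping its neighbour, and Boll and Nanos2 were lowest. After dex, Dazl moved to second place at 3.23 ± 0.0583 FPKM (SD, n = 3), apart from Rbm46 above it and Dnd1 below it. The means of the other 7 genes kept their order.

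Because the somatic fraction can hold some germ cells or germ cell RNA, the somatic levels were set beside those of the 20 germ cell markers. In bulk libraries a larger number of cells of a type and more RNA per cell cannot be told apart. None of the 15 markers tested in somatic cells was called after dex in the main edgeR test. There 4.81% of all genes were called higher and 3.36% lower. The median log2 difference of the 15 markers was 0.35, against 0.00 over all genes tested. Smc1b was called higher with DESeq2 (adjusted p = 0.0108, Wald test) and in some other settings. Hormad1 was called in 1 fit of all 12 libraries. The summed level of the 20 markers was 84.4 to 104 CPM in the somatic saline libraries and 72.3 to 110 CPM in the somatic dex libraries. Most of it came from Tex15 and from Rec8, which was lower in germ cells. Without these markers, a choice made after their values were seen, the sum was 24.1, 36.2 and 24.9 CPM in saline libraries 1, 2 and 3 and 20.8, 43.6 and 50.2 CPM in dex libraries 1, 2 and 3. The median marker stood at 0.253% to 0.412% of its germ cell level after saline and at 0.142% to 0.486% after dex, so the 2 groups overlapped. By summed counts, with exact intervals of counting error, the ratio of dex to saline lay above 1 for 7 markers, below 1 for 2 and included 1 for 11. The 2 below 1 were Rec8 and Tex15, the markers left out of the second sum. Among the abundant ones, Sycp1 had 184 counts in sum after saline and 283 after dex, Sycp3 had 62 and 120, and Mael had 40 and 76. Others of high germ cell level did not rise: Sycp2 had 142 and 128, and Taf7l had 159 and 157. Pou5f1, whose sequence drives the GFP of the sort, and Dppa3, both low in germ cells at 19.7 and 7.97 CPM, had 3 counts each in sum after saline and 0 in every dex library.

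In somatic dex libraries 1, 2 and 3 the median marker share was 0.142%, 0.437% and 0.486%, and Dazl was at 12.9, 12.8 and 12.6 CPM. Relative to the median marker share, Dazl stood at 0.229 to 0.46 in the saline libraries and at 8.85, 2.85 and 2.53 in dex libraries 1, 2 and 3. The Ddx4 share in the same libraries was 0.134%, 0.374% and 0.385%. The markers did not all keep to 1 proportion. Smc1b, a cohesin subunit of meiotic chromosomes, had 28, 53 and 38 counts after saline and 41, 146 and 151 after dex (log2 difference 1.39, SE 0.41, BH-adjusted p = 0.0541, edgeR). Hormad1, a protein of the meiotic chromosome axis, had 6, 8 and 9 counts and then 11, 23 and 32 (log2 difference 1.41, SE 0.52, adjusted p = 0.13, edgeR). The part of germ cell RNA in the somatic differences of Dazl, Boll, Ddx4, Cpeb1 and Nanos3 was not tested.

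**Figure D3:**
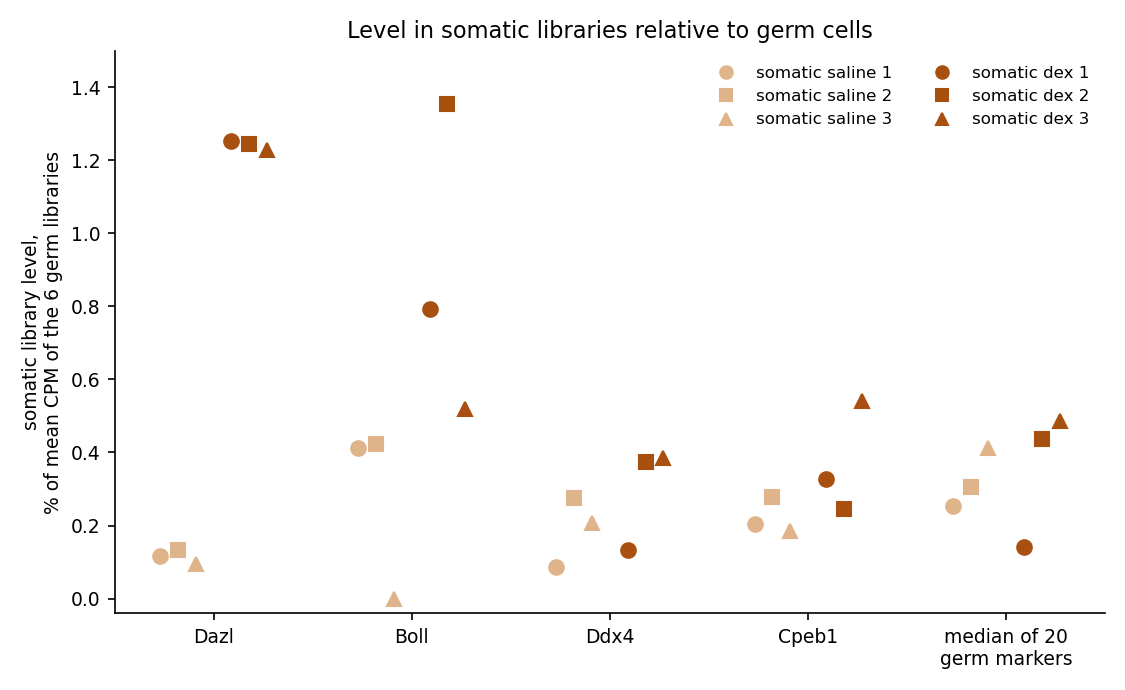
Level in each somatic library as a percentage of the mean CPM of the 6 germ libraries, for Dazl, Boll, Ddx4, Cpeb1 and the median of 20 germ cell markers (light: saline, dark: dex; circle, square and triangle: libraries 1, 2 and 3). Dazl is at 1.23% to 1.25% in every dex library, while the marker median spans 0.142% to 0.486% and overlaps its saline range. The Dazl points after dex lie closer together than counting error alone would give.

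The Dazl values were next set beside those of genes much higher in germ cells. A set of 368 genes had at least 10 CPM in germ cells and at least 32 times the level of the somatic libraries, and it included Dazl, Boll, Ddx4 and Cpeb1. Some of its genes, such as Tex15 and Stag3, had clear somatic levels as well. Without Dazl its summed somatic level was 358 CPM after saline and 388 CPM after dex. All 3 dex libraries lay above all 3 saline libraries for 23 of the 368 genes, or 6.25%, and below them for 7. The shares of 13.5% and 11.9% over genes tested in somatic cells are not a like comparison. Those genes passed the low-count filter, whereas 124 of the 368 were at or under the floor after saline. The set was also defined with the somatic dex libraries, so genes with a large rise could be left out. By difference in CPM Dazl ranked first, at 11.6 CPM, and the next, Stag3, differed by 9.92 CPM from a saline level of 24.7 CPM. For the 240 genes whose mean over the 6 somatic libraries was above the floor, the median log2 ratio of the group means was 0.22. Dazl came second in that order, after Dpep3, which had no saline count. Dazl was chosen by its somatic rise in these same libraries, so both of its places are a description. The 5 genes with the largest values in a fit of all 12 libraries, Dpep3, 4933416C03Rik, AU022751, Gm44601 and Gja10, had 0 counts in every saline library and in dex library 1, and at most 15 counts in any other library, so no fold is given for them.

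Besides Dazl, 116 genes of the set passed the filter of the somatic test, and 1 of them, Stag3, was called higher and none lower, where 4.81% and 3.36% of all genes were called. Stag3, a meiotic cohesin subunit, had 436, 365 and 379 counts after saline and 496, 679 and 597 after dex (log2 difference 0.49, SE 0.12, BH-adjusted p = 0.0202, edgeR; 0.104 without somatic dex library 2). The genes that follow are named after their values were seen. Mov10l1, an RNA helicase of the piRNA pathway, had 5, 12 and 4 counts and then 13, 35 and 31, and was not called (log2 difference 1.78, SE 0.56, adjusted p = 0.0732, edgeR). Gm4779 had 13, 7 and 9 counts and then 15, 25 and 29, and was not called either (adjusted p = 0.179, edgeR). Dnaic1 and Tdrd12 were under the filter, with 1, 2 and 1 against 13, 5 and 5 counts for Dnaic1 and 7, 15 and 14 against 2, 3 and 1 counts for Tdrd12, another gene of the piRNA pathway. Neither was tested in somatic cells.

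**Figure D4:**
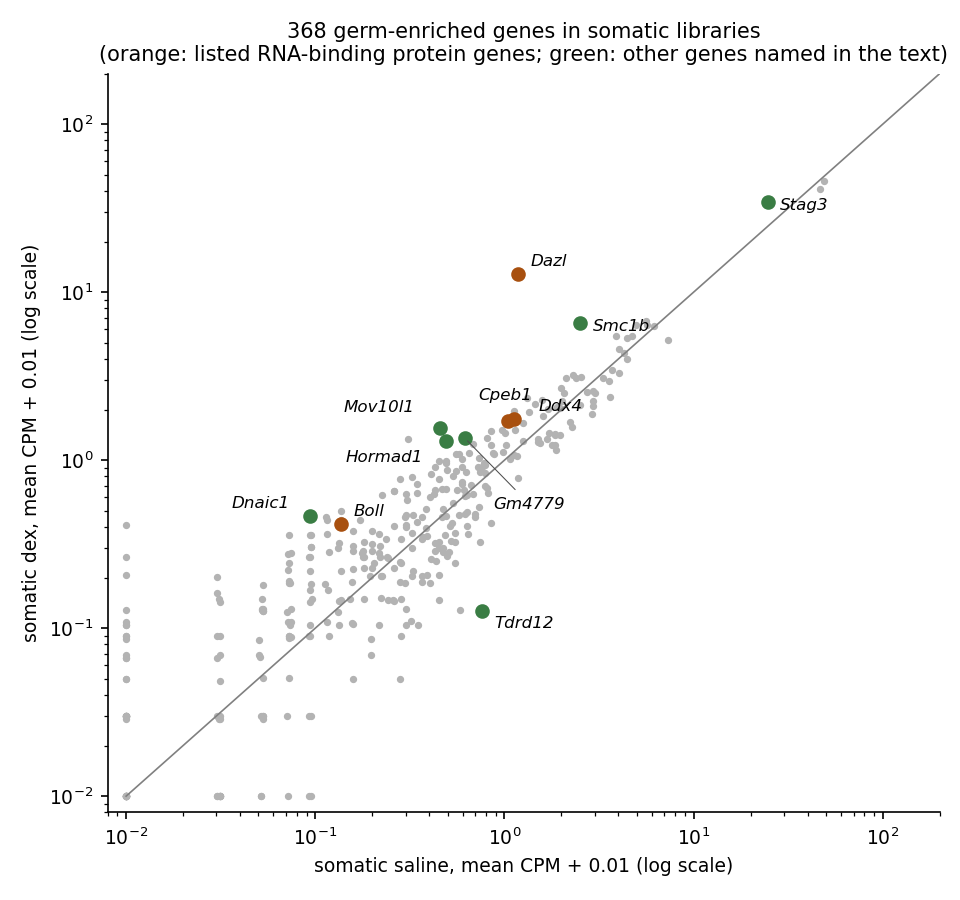
Mean level of each of 368 germ-enriched genes in somatic cells after saline (x) and after dex (y), in CPM plus 0.01 on log scales, with the line of equality. Orange points are the 4 RNA-binding protein genes in the set and green points 7 other genes named in the text. Of the 368 genes, 216 had a higher mean after dex, and Dazl, at 1.17 and 12.8 CPM, had the largest difference in CPM. That rise chose the gene, so its place is a description.

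The lists of genes that act with these proteins held few calls, in tests where 4.81% of all genes were called higher and 3.36% lower in somatic cells and 0.208% were called in germ cells. Of 20 other germ cell RNA-binding protein genes, 15 were tested in somatic cells and none was called in edgeR, with a median log2 difference of −0.16. None of 18 tested in germ cells was called. Of 17 tested genes for DAZ and CPEB partners and cytoplasmic polyadenylation, 1 was called in somatic cells in edgeR. Dzip1, which encodes a DAZ-interacting zinc finger protein, was lower after dex at 49.7 ± 2.41 CPM against 60.7 ± 1.54 CPM (SD, n = 3), a log2 difference of −0.29 (SE 0.07, BH-adjusted p = 0.0246, edgeR). The median of these 17 was −0.02, and none was called in germ cells. None of the 14 tested CCR4-NOT genes was called in either population, with medians of −0.02 in somatic and −0.06 in germ cells. Pabpc1, the poly(A)-binding protein that DAZL recruits, differed in its response between the populations by −0.45 on the log2 scale (SE 0.09, adjusted p = 0.0207, edgeR). It was at 3173 ± 62.8 CPM after saline and 2596 ± 172 CPM after dex in germ cells and at 916 ± 24.9 and 1025 ± 34.1 CPM in somatic cells. In edgeR it was called in neither population alone (adjusted p = 0.138 and 0.136). With DESeq2 it was called higher in somatic cells (adjusted p = 0.0403, Wald test). Among the 13 somatic markers, Pdgfra (stromal progenitors) was higher by 0.62, and Wnt4 (pregranulosa cells) and Cdh5 (endothelium) were lower, at −0.24 and −0.50, with adjusted p-values of 0.000101, 0.0373 and 0.00862 in edgeR. No other of the 13 was called, with Foxl2 at 0.02, Dcn at 0.03 and Pecam1, also endothelial, at −0.27. Kitl was at −0.16, Wt1 at −0.16, Fst at −0.14 and Gata4 at −0.07. Nr2f2 was at 0.15, Col3a1 at 0.08 and Col1a1 at −0.004. The calls of Dzip1, Wnt4 and Cdh5 were lost when all 12 libraries were fitted together, at adjusted p-values of 0.179, 0.613 and 0.0857. The part of any shift within the somatic mixture in the Dazl values was not tested.

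Around Dazl, 5 other genes within 500 kb passed the filter in somatic cells. Plcl2, which encodes a phospholipase C-like protein and starts 216 kb from Dazl, was higher after dex at 66.3 ± 10.5 CPM against 44.2 ± 1.57 CPM (SD, n = 3; log2 difference 0.58, SE 0.10, BH-adjusted p = 0.00303, edgeR). The nearest, Rftn1 at 88.7 kb, was at −0.09, and Tbc1d5, Kif6 and the pseudogene Gm7334 were at 0.13, 0.37 and 0.08, none of them called. The pattern over the 12 libraries most like that of Dazl, among 16146 genes averaging 1 CPM or more, belonged to Baiap2 (Pearson r of log2 CPM 0.996), Pbk (0.996), Rnf19a (0.995), Fam117b (0.995) and Mum1l1 (0.994). These 5 were picked over the same libraries, the somatic dex ones among them, so their shared pattern describes that choice. All 5 were higher in germ cells than in somatic cells and had higher somatic means after dex than after saline. For Baiap2 these means were 38.8 ± 2.01 CPM against 23.3 ± 1.76 CPM, and for Dazl 12.8 against 1.17 CPM, so a high r does not mean a rise of the same size. Of the list, Boll came closest at r = 0.981 (order 107), followed by Cpeb1 at 0.971, Ddx4 at 0.967, Rbm46 at 0.939 and Dnd1 at −0.547. These values describe 12 libraries of 4 groups that share the same difference between cell populations, and they are given without a test.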

How the data were processed

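Poly-A selected RNA was sequenced as read pairs, aligned by the sequencing provider to mm10 with HISAT2 2.0.5 and counted per gene with featureCounts 1.5.0-p3. The authors deposited raw counts per gene for 54532 Ensembl identifiers, and these counts were used as deposited. The authors also deposited FPKM values computed from the counts, gene length and depth, which carried 1 extra factor per library of 0.946 to 1.026 and were used only for levels between genes. The authors' 2 tables of DESeq2 1.20.0 comparisons (fold changes and p-values) were not used.

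Counts were tested with edgeR 4.0.16 in R 4.3.3 (quasi-likelihood, TMM scaling, filterByExpr, BH-adjusted p of at most 0.05). The tests were dex against saline within each cell population (6 libraries each), the difference of the 2 dex effects (12 libraries), and germ against somatic cells after saline. All p-values were adjusted over all genes tested. Standard errors were those implied by the F statistic, and intervals of count ratios were exact binomial at 95%. The procedure was tested on simulated data. Each library was labelled a biological replicate and held cells pooled over at least 2 litters, per the study's methods. The members and gene lists were chosen with earlier results of these data known. Named genes were the 8 members, up to 3 called rises and 3 called falls per list in the somatic test and every called list gene in the germ cell test, filtered genes within 500 kb of Dazl, the 5 genes most like Dazl in log2 CPM (prior count 2) and the 5 germ-enriched genes with the largest somatic rise. Any other named gene was chosen after its values were seen. Alternatives were DESeq2 1.42.0, its size factors in edgeR, no filter, a filter of 1 CPM in 3 libraries, the replicate number as a block, 1 fit of all 12 libraries, and leaving out each library. Promoter windows were from RefSeq (GRCm38.p6), coordinates from GENCODE.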

Additional observations from a re-analysis of the deposited data

Results flagged for a closer look

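Among the genes named, 9 had a dex effect that differed between the germ and somatic cells in the fit of all 12 libraries. For Dazl the log2 difference, germ minus somatic, was −3.56 (SE 0.14), and it is a description because the somatic rise chose the gene. Of the response genes used as a check, Fkbp5 was at −0.97, Tsc22d3 at −1.13 and Zbtb16 at −3.99 (adjusted p = 0.000328, 1.87e-05 and 0.00913, edgeR), and the Zbtb16 call was lost without germ saline library 2 (adjusted p = 0.072). For Plcl2, a neighbour of Dazl, it was −0.84 (SE 0.14, BH-adjusted p = 0.00529, edgeR). For Mov10l1 it was −1.91 (SE 0.38, adjusted p = 0.0171, edgeR) and for Hormad1 −1.66 (SE 0.36, adjusted p = 0.028, edgeR), the first named after its values were seen and the second a germ cell marker. For Tdrd12 it was 2.63 (SE 0.48). With 1 to 15 somatic counts a library, Tdrd12 was under the filter of the somatic test and was in this fit only through its germ cell level, so this value is a description. For Pabpc1 it was −0.45 (SE 0.09, adjusted p = 0.0207, edgeR), with a lower mean in germ cells and a higher mean in somatic cells after dex. No cause of these differences was tested.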

How the results depend on the processing

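Under every alternative run, Dazl was the only one of the 8 genes called in somatic cells and in the difference between populations, and none was called in germ cells. The calls of Dazl are a description, because its somatic rise in these same libraries chose the list. The somatic log2 difference of Dazl was 3.42 to 3.44 over the 6 other settings and 3.31 to 3.55 with 1 library left out. The number of genes called depended more on the setting. In germ cells it was 420 without the low-count filter, 158 with DESeq2 and 64 in 1 fit of all 12 libraries, against 35, and 17 (without dex library 2 or saline library 3) to 81 (without dex library 1) with 1 library left out. In somatic cells it was 803 in 1 fit of all 12 libraries, against 1354, and 754 to 1881 with 1 library left out, the lower values coming without dex library 2 (856) or saline library 1, 2 or 3 (888, 756 and 754). For the difference it was 727 without the filter and 620 with DESeq2, against 314, and 143 to 384 with 1 library left out, with at most 201 without germ dex library 2 or 3, germ saline library 3, somatic dex library 1 or 2, or somatic saline library 2 or 3. The cause of these shifts was not tested.

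The Dnd1 difference between germ and somatic cells was not called with DESeq2 size factors, DESeq2, the replicate block or all 12 libraries in 1 fit (adjusted p = 0.0538 to 0.113), nor without germ saline library 2 or 3 or somatic saline library 1 or 2 (adjusted p up to 0.198). Calls of Dzip1, Wnt4 and Cdh5 in somatic cells were lost in 1 fit of all 12 libraries (adjusted p = 0.179, 0.613 and 0.0857), those of Dzip1 and Wnt4 without somatic dex library 1 (0.0808 and 0.138) or any 1 somatic saline library, that of Wnt4 also without somatic dex library 2 (0.0834), and that of Cdh5 without somatic saline library 3 (0.0597). Stag3 lost its call without somatic dex library 2 (0.104) or somatic saline library 2 or 3. In the difference, Pabpc1, Hormad1 and Mov10l1 each lost their call when certain single libraries were left out, with adjusted p-values up to 0.074, 0.0949 and 0.0939. Mov10l1, Hormad1, Smc1b and Gm4779 were called in somatic cells in 1 fit of all 12 libraries (adjusted p = 0.00805 to 0.0414), whose estimate of the spread also uses the germ libraries, where these genes are high. Smc1b in somatic cells was also called without the filter, with DESeq2, with the replicate block and without somatic dex library 1 (adjusted p from 6.59e-06 to 0.0108). Mov10l1 in somatic cells was also called without the filter and without somatic dex library 1 (adjusted p = 0.0226 and 0.0433, edgeR). Pabpc1 in somatic cells was called with DESeq2 (adjusted p = 0.0403, Wald test). Reversed directions were those of Cpeb1 in germ cells without germ saline library 1 (0.0204, over a range down to −0.0758) and of Cdh5 in the difference without germ dex library 1 (−0.000179) or germ saline library 3 (−0.0229, over a range up to 0.328), none of them called in either setting.

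Replicate numbers were not used to pair the libraries in the main tests: correlations of same-numbered deviations were −0.0097 to 0.132, with 1 of 12 above 0.1. Those between germ and somatic libraries were all above 0, at 0.0543 to 0.0991. Libraries of different numbers were not compared in this way, so a weak pairing was not tested. With the number as a block, 49, 1520, 313 and 15283 genes were called in germ cells, in somatic cells, for the difference and between populations after saline. The mean somatic Dazl level after dex was 12.51 CPM by library totals alone. Boll and Nanos2 in somatic cells and Nanos2 and Nanos3 in germ cells were under the low-count filter at this depth.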
